A study of Mus musculus with 6 samples.

Results

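The genes described here are the hnRNP, SR, Tra2 and Clk regulators of pre-mRNA splicing in embryonic mouse neocortex. They were taken by symbol from the deposited count table: every gene whose symbol begins with Hnrnp followed by a letter or with Hnrp, every numbered Srsf gene, Clk1 to Clk4, and Tra2a and Tra2b. The rule found 37 of 23420 genes in the table, namely 20 hnRNP genes, 11 SR protein genes, 2 Tra2 genes and 4 Clk kinase genes. All 37 had enough reads to be tested, among 14618 genes that were. RNA came from the neocortex at embryonic day 18.5 of embryos labelled Tshz3 mutant or wild type, with 3 libraries per genotype, each made from pooled cortices of 3 to 4 embryos. Each pool drew on several litters. The allele, the strain and whether the mutants carried 1 or both altered copies were not given in the sources used here.

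Splicing removes introns from pre-mRNA, and which exons are kept is set largely by proteins that bind the transcript. SR proteins carry RNA-recognition motifs and a tail rich in arginine and serine, and many promote the inclusion of exons to which they bind. The hnRNP proteins coat nascent RNA and often, though not always, oppose that inclusion. The Clk kinases phosphorylate the arginine-serine tails and so move SR proteins out of nuclear speckles. Many of these genes limit their own output by splicing in a so-called poison exon or by keeping an intron, which sends the transcript to nonsense-mediated decay or holds it in the nucleus. In developing cortex, shifts in such regulators accompany the change from progenitor to neuron.

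Total counts were 18569383 to 24147810 per library, and the 37 genes took 1.08% to 1.16% of them. Tshz3 itself, on chromosome 7, was at 89.8, 93.1 and 99.2 CPM in mutant libraries 1 to 3 and at 78.7, 83.0 and 89.3 CPM in the wild-type libraries (CPM: a gene's count scaled to a library of 1000000 counts, with TMM scaling). The gene-level count therefore gives no check of the genotype labels, and the mutant group is called mutant-labelled. Cortical projection neuron markers were abundant in all 6 libraries, with 6 of 6 tested and a summed level of 1977 to 2187 CPM in mutant-labelled and 1777 to 2027 CPM in wild-type libraries. All 5 meningeal markers were tested, and their sum ran from 50.5 to 221 CPM in mutant-labelled and from 38.5 to 276 CPM in wild-type libraries. The adult globin genes Hba-a1, Hba-a2, Hbb-b1 and Hbb-b2 are listed at 0 in every library, while the red-cell gene Alas2 was measured. Immediate-early genes, which neurons switch on with activity, summed to 52.6 to 63.5 CPM in mutant-labelled and to 115 to 146 CPM in wild-type libraries. Of 9 tested, 5 were called lower with pairing, where 1.49% of all genes were called lower. Without pairing, edgeR called 1 (0.0752% of all genes) and DESeq2 called 5 (0.725% of all genes).

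The start regions of 4 genes that the results turn on are shown first, because 3 of them passed the paired test below and the fourth, Tra2a, is the close relative of one that did. Each window runs from 250 bases before to 50 bases after the annotated gene start (RefSeq, GRCm38.p6), 5′ to 3′ on the gene's own strand. Capitals mark matches to the letters searched on both strands.
Srsf6 (chr2:162931258-162931557, plus strand): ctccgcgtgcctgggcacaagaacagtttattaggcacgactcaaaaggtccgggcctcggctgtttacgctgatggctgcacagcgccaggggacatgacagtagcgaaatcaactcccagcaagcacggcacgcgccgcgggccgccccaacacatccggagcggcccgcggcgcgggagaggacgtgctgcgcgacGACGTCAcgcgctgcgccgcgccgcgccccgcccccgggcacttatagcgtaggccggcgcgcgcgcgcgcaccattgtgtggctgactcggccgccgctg
Srsf7 (chr17:80207256-80207555, minus strand): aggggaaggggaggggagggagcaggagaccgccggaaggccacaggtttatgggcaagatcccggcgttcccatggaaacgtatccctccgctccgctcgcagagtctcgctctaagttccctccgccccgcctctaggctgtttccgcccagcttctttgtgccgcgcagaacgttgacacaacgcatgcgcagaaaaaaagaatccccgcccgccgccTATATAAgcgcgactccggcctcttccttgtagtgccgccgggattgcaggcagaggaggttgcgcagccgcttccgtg
Tra2b (chr16:22265956-22266255, minus strand): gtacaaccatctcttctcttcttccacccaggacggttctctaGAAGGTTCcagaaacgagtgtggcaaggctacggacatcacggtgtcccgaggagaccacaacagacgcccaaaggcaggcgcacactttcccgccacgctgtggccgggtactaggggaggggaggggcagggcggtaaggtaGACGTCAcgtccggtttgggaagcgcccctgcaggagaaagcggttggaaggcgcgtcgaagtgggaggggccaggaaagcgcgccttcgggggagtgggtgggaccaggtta
Tra2a (chr6:49264003-49264302, minus strand): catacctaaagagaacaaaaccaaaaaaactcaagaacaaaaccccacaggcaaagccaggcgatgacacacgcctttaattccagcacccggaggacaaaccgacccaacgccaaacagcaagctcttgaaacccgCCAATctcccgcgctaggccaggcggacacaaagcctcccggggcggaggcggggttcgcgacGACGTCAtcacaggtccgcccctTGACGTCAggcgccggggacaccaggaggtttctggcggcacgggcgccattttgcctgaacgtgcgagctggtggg
The letters searched were TGACGTCA, the cyclic AMP response element, the same less its first base (GACGTCA, which lies within any match to the full element), CCAAT, the TATA forms TATAAA and TATATAA, and GAANNTTC, a pair of heat shock element units. The shorter response element and TATATAA were added after these windows had been read. Tra2a held the full response element, found in 1.79% of all 32851 windows of this length, and a second, shorter copy. Srsf6 and Tra2b each held the shorter form, found in 3.21% of all windows and in 10.9% of the 46 member windows. It occurred in 5 of the 34 member genes with a window, the others being Clk4, Hnrnpm and Tra2a. Srsf7 held TATATAA, starting 29 bases before the gene start, which 3.24% of all windows had. Tra2b alone of the 4 held GAANNTTC, present in 7.86% of all windows. Member windows were rich in G and C, with a median of 66.8% against 52.7% over all windows. The shares of windows holding each match were not matched for this. Such matches describe the letters only. Clk1, Hnrnpul2 and Hnrpll had no window in the table used.

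Levels between genes were compared per length, as mean wild-type CPM per kilobase of coding-transcript exon (GENCODE M21). Hnrnpa2b1, whose protein binds and sorts RNA in nucleus and neurite, was the most abundant at 565 CPM per kilobase. Hnrnph1, which binds runs of G, followed at 301, Srsf5 at 202, Hnrnpab at 172, and Srsf3 at 169 CPM per kilobase. Srsf6, Srsf7, Tra2a and Tra2b lay in the middle of the order at 82.4, 99.6, 106 and 73.6 CPM per kilobase. The Clk kinases were lower, with Clk1 at 61.1, Clk4 at 37.9, Clk2 at 29.2 and Clk3 at 27.0 CPM per kilobase in wild type. Srsf12 stood near the bottom at 12.4 CPM per kilobase, as did Hnrnpr at 12.2, whose value is lowered by an annotated exon length of 21696 bases. Hnrnpa1 appeared low for a gene known to be abundant, at 15.7 CPM per kilobase. Of the 50-base words in its longest coding transcript, 46.4% also occur in transcripts of 18 other annotated genes, 17 of them pseudogenes. The Hnrnpa1 count is therefore uncertain. At least 20% of such words were likewise shared for Hnrnpf, Hnrnpk, Srsf3, Hnrnpm, Hnrnpa3 and Srsf5, and Tra2b shared 18.3% with 4 pseudogenes, so these counts are uncertain too. Srsf6 and Clk1 shared none and Srsf7 0.893%.

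The comparison asks which of these genes differ between mutant-labelled and wild-type neocortex. Most did not move beyond the spread between libraries. The log2 fold change, mutant-labelled over wild type, lay between −0.18 and 0.20 for every member except Clk1, at 0.62. It was within 0.1 of 0 in 28 of 37 members (75.7%), against 55.3% of all tested genes. The lowest mean wild-type level was 30.0 CPM among members and 0.134 CPM among all tested genes, so these shares were not matched for level. In the 5 lists of other splicing-pathway genes given below the share was 78.4%. The median log2 fold change was −0.02 for the members and −0.01 for all genes. Without pairing, edgeR's quasi-likelihood test with Benjamini-Hochberg adjustment over all genes called 0 of the 37 at an adjusted p of 0.05, where 0.0752% of all tested genes were called. At an unadjusted p under 0.05 there were 4 members, Clk1, Srsf6, Srsf7 and Tra2b, against 7.09% of all genes. DESeq2 called Srsf6 alone, against 0.725% of all genes.

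Same-numbered libraries shared their deviations from the group mean, and the fit was therefore repeated with the library number as a block. That fit called 3 of 37 members (8.11%) where it called 3.46% of all genes: Srsf6 and Srsf7 were higher (1.97% of all genes were called higher) and Tra2b was lower (1.49% were called lower). These calls depended on which libraries were used. With both libraries numbered 2 left out the paired fit called 8 of 37 members, where it called 12.8% of all genes, namely Srsf6, Srsf7 and Srsf12 higher (7.65% of all genes) and Tra2b, Hnrnpr, Hnrnpa0, Hnrnpa3 and Srsf5 lower (5.16% of all genes). With the libraries numbered 1 left out it called Clk1 alone, against 2.03% of all genes. With those numbered 3 left out it called 0 members, against 0.421% of all genes. At an unadjusted p under 0.05 that fit had 4 of 37 members and 1439 of all 14719 genes. Srsf6, Srsf7 and Tra2b were thus each called in 1 of the 3 smaller fits, each of which has 1 residual degree of freedom.

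**Figure D1:**
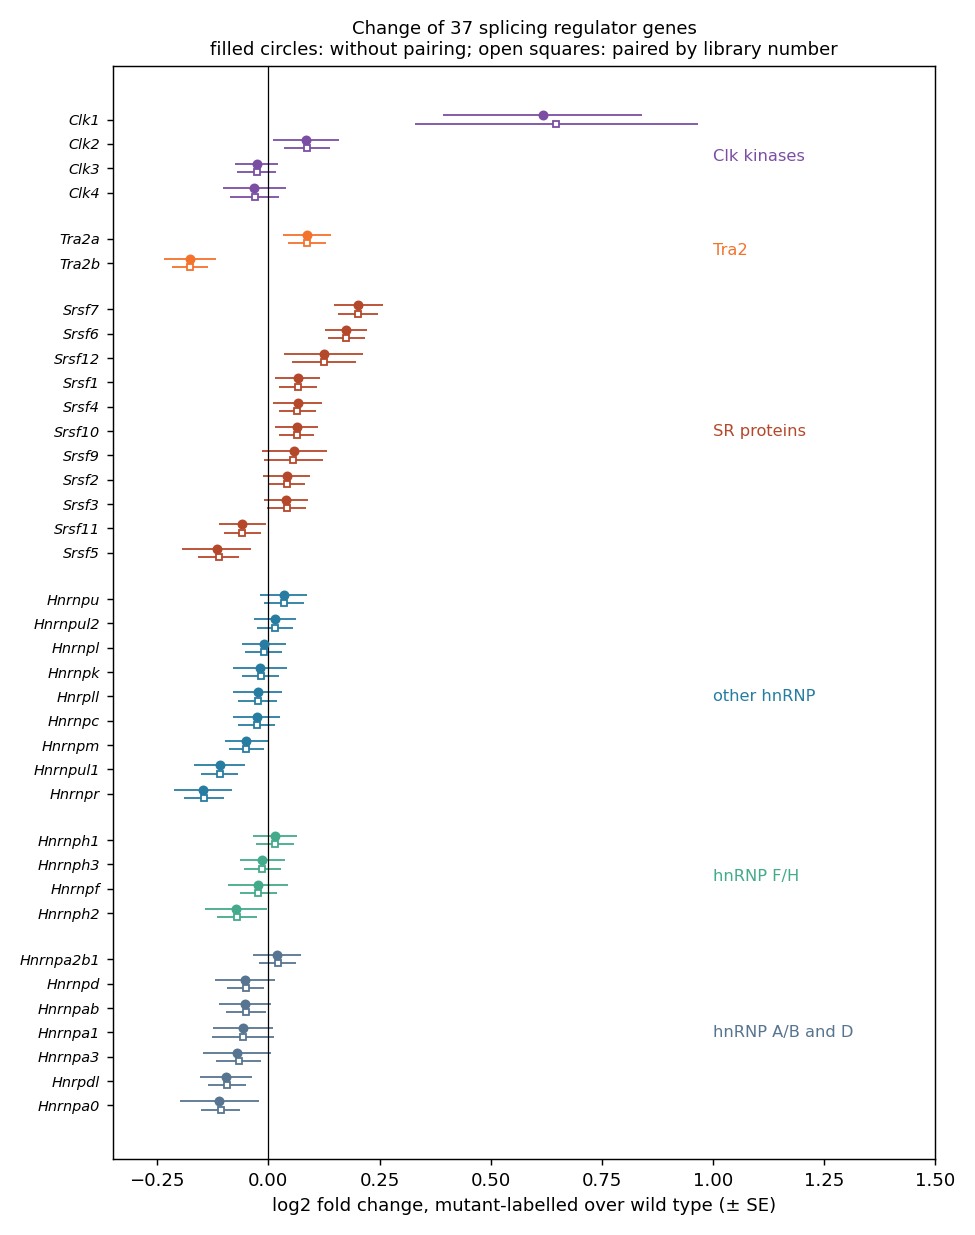
Log2 fold change, mutant-labelled over wild type, with its standard error for each of the 37 genes, grouped by family (n = 3 libraries per genotype). Filled circles are the fit without pairing and open squares the fit paired by library number; Clk1, at 0.62, stands apart with the widest bars, most hnRNP genes sit just left of 0 and most SR genes just right of it.

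Most SR protein genes had values above 0. Of 11, 9 had a log2 fold change above 0 (81.8%, against 47.7% of all tested genes), as in every fit that left out 1 library or 1 pair, and the family median was 0.06. Srsf6, an exon-inclusion factor on chromosome 2 (162931528 to 162937121), was at 347, 342 and 341 CPM in mutant libraries 1 to 3 and at 306, 301 and 306 CPM in wild type. The groups did not overlap, and the SDs of 2.76 and 3.10 CPM were small beside the gap between means of 343 and 304 CPM. Srsf6 rose by 12.9% with pairing (log2 fold change 0.18, SE 0.04, edgeR adjusted p = 0.0303 paired and 0.437 unpaired). Srsf7, on chromosome 17 (80200080 to 80207307), encodes an SR protein with a zinc knuckle that also takes part in mRNA export. Its level was 310.1, 287 and 289.5 CPM in mutant libraries 1 to 3 and 254, 264 and 252 CPM in wild type. All 3 mutant-labelled libraries again lay above all 3 wild-type ones, and mutant 1 was the highest. Srsf7 rose by 15.0% with pairing, a log2 fold change of 0.20 (SE 0.04), with an edgeR adjusted p = 0.0213 paired and 0.439 unpaired.

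Srsf1, Srsf3 and Srsf10 also had groups that did not overlap, by small margins, and passed neither test. Srsf1, the founding member of the family, was at 416, 407 and 410.4 CPM in mutant-labelled and 397, 379 and 402 CPM in wild-type libraries. Srsf10, which represses splicing when dephosphorylated, was at 172, 178 and 173 CPM against 169.9, 167 and 163 CPM. Srsf3, the smallest SR protein, was at 462, 451 and 455 CPM against 431, 450.0 and 449.6 CPM, so wild-type libraries 2 and 3 lay close below the mutant-labelled range. Their log2 fold changes were 0.07, 0.06 and 0.04. Srsf2, Srsf4, Srsf9 and Srsf12 had values of 0.04, 0.07, 0.06 and 0.12, with overlapping groups.

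The exceptions among SR genes were Srsf5 and Srsf11, with log2 fold changes of −0.12 (SE 0.08) and −0.06 (SE 0.05). Srsf5 was at 314, 299 and 311 CPM in mutant-labelled and 362, 297 and 343 CPM in wild-type libraries. Wild-type library 2 lay below every mutant-labelled library, while wild-type libraries 1 and 3 lay above all of them. Summed over the 11 SR genes, the level was 2773, 2678 and 2708 CPM in mutant-labelled and 2647, 2568 and 2649 CPM in wild-type libraries.

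Of the Tra2 genes, Tra2b was lower with pairing and Tra2a passed neither test. Tra2b, an SR-like activator of exons needed for brain development and known to splice in its own poison exon, lies on chromosome 16 (22244549 to 22266005). Its level was 239.7, 222 and 228 CPM in mutant libraries 1 to 3 and 269, 246 and 266 CPM in wild type. Every mutant-labelled library lay below every wild-type library, and the library numbered 2 was the lowest in both groups. Tra2b fell by 11.5% with pairing (log2 fold change −0.18, SE 0.04, adjusted p = 0.0277 paired and 0.525 unpaired). Tra2a, its close relative on chromosome 6 (49243924 to 49264033), was at 212, 196 and 199.9 CPM against 186, 189 and 197 CPM. Mutant 2 lay below wild type 3, so the groups overlapped, and the log2 fold change of 0.09 (SE 0.05) passed neither test (adjusted p = 0.814, paired 0.305). The difference between the responses of Tra2a and Tra2b was not tested.

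**Figure D2:**
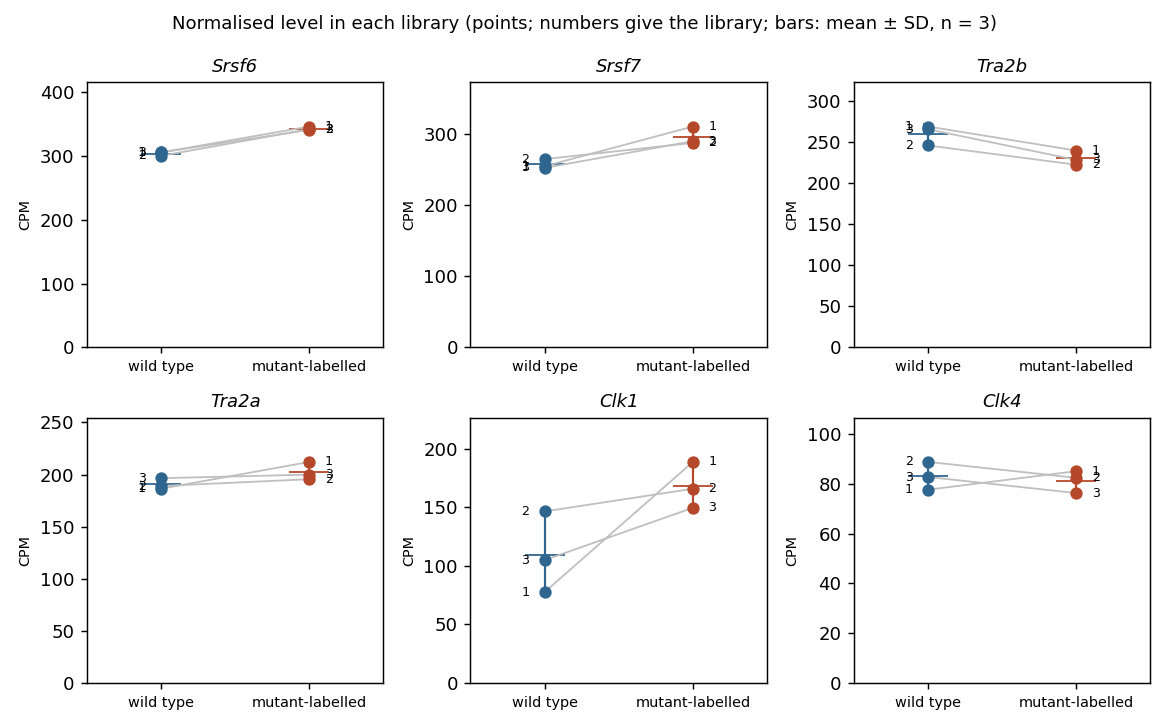
Normalised level in CPM (vertical axis, from 0) of Srsf6, Srsf7, Tra2b, Tra2a, Clk1 and Clk4 in each wild-type (blue) and mutant-labelled (red) library; grey lines join libraries with the same number and bars give the mean ± SD (n = 3). Srsf6 and Srsf7 are higher and Tra2b lower in each of the 3 numbered pairs, Tra2a and Clk4 overlap between groups, and Clk1 ranges from 77.6 to 147 CPM within wild type alone.

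Clk1 had the largest difference of the 37 and the largest spread within each group, with a coefficient of variation of 31.7% in wild type and 11.7% in mutant-labelled libraries. It encodes a kinase of SR proteins, and part of its RNA is known to be kept in the nucleus with introns unspliced. Clk1 (chromosome 1, 58410189 to 58424066) was at 189, 166 and 149.7 CPM in mutant libraries 1 to 3 and at 77.6, 147 and 105 CPM in wild type. The groups just failed to meet, mutant 3 being above wild type 2 by a few CPM, while wild-type libraries differed among themselves by more than that gap. Its log2 fold change was 0.62 (SE 0.22) and passed neither test (adjusted p = 0.621, paired 0.489). Within libraries of the same number the log2 differences were 1.28, 0.18 and 0.51. Leaving out single libraries moved the value between 0.42 and 0.88, with unpaired adjusted p from 0.0989 to 1.00. The only fit that called Clk1 was the paired one without the libraries numbered 1 (log2 fold change 0.34, adjusted p = 0.0211), which left out the pair with the largest difference.

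Heat shock genes differed between the same wild-type libraries. Hspa1a, which encodes an inducible Hsp70 chaperone, was at 1.14, 34.6 and 5.61 CPM in wild-type libraries 1 to 3 and at 0.471, 0.751 and 0.806 CPM in mutant-labelled ones. Its neighbour Hspa1b was at 3.51, 57.3 and 10.4 CPM against 3.44, 2.38 and 2.82 CPM. In wild type the order of Clk1 (library 2, then 3, then 1) was that of both Hsp70 genes, and in mutant-labelled libraries Clk1 was high with both of them low. Of the 8 genes in the heat and cold response list 0 were called in either fit, with 4 at an unadjusted p under 0.05 without pairing. Those 4, Hspa1a, Hspa1b, Hspb1 and Dnajb1, were the ones whose groups did not overlap, each lower in mutant-labelled libraries, and 6 of the 8 had a log2 fold change below 0. The list summed to 3023 to 3210 CPM in mutant-labelled and 2958 to 3198 CPM in wild-type libraries, a sum made up mostly of the constitutive chaperone gene Hspa8, at 2377 to 2566 and 2253 to 2493 CPM. The part of such a response in the Clk1 values was not tested. The 2 genes are near-identical copies, so how reads were divided between them is uncertain.

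**Figure D3:**
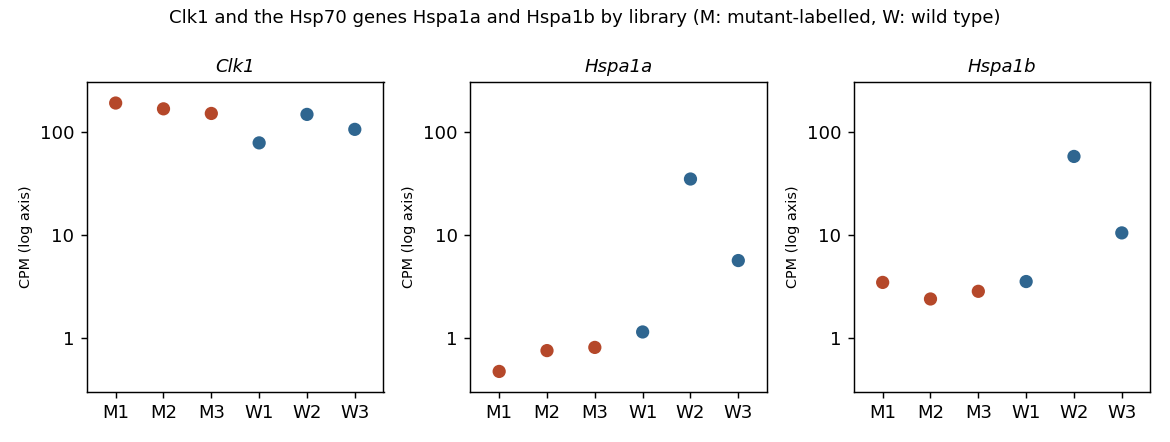
Level in CPM (log axis, the same in all panels) of Clk1, Hspa1a and Hspa1b in mutant-labelled libraries 1 to 3 (M, red) and wild-type libraries 1 to 3 (W, blue). The Hsp70 genes are highest in wild-type library 2, at 34.6 and 57.3 CPM, where Clk1 reaches 147 CPM and so comes closest to the mutant-labelled libraries.

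The other Clk kinases showed no such spread. Clk4, the closest relative of Clk1, was at 85.2, 82.5 and 76.4 CPM in mutant-labelled and 77.7, 88.9 and 82.8 CPM in wild-type libraries. Its groups overlapped, mutant 3 being the lowest library and wild type 2 the highest, with a log2 fold change of −0.03 (SE 0.07) that changed sign when single libraries were left out. Clk2 was at 74.6, 67.8 and 70.3 CPM against 68.9, 60.8 and 70.9 CPM, a log2 fold change of 0.08 (SE 0.07). Clk3 was at 94.7, 91.8 and 93.2 CPM against 96.2, 95.5 and 93.2 CPM, a log2 fold change of −0.03 (SE 0.05). Clk3 was thus the steadiest of the 4. None of these 3 passed either test.

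Most hnRNP genes had values slightly below 0. Of 20, 16 had a log2 fold change below 0 (80.0%, against 52.3% of all tested genes), and the median was −0.04. The count was 15 with total-count scaling, and it ran from 12 to 17 when 1 library was left out. It was lowest without wild type 1 (60.0%, against 51.2% of all genes) and 13 without mutant 3, so the excess over all genes depended on single libraries. None passed either test, and all 20 lay within 0.2 of 0. Hnrnpr, a relative of Syncrip that binds mRNA in axons, had the smallest p of them. It was at 246, 237 and 236 CPM in mutant libraries 1 to 3 and 278, 243 and 274 CPM in wild type. Wild-type library 2 fell inside the mutant-labelled range and the other wild-type libraries lay well above it. The log2 fold change of Hnrnpr was −0.15 (SE 0.06, adjusted p = 0.717, paired 0.0952). Hnrnpul1, a nuclear matrix protein that acts in RNA processing and DNA repair, was the only hnRNP gene whose groups did not overlap, at 152, 146 and 156 CPM against 172, 159 and 158 CPM. Its log2 fold change was −0.11 (SE 0.06, adjusted p = 0.783).

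In the A/B and D group, which includes the core particle proteins and the AU-rich element binders, 6 of 7 genes were below 0. Hnrpdl, now named Hnrnpdl, was at 418, 392 and 403 CPM in mutant-labelled and 443, 408 and 445 CPM in wild-type libraries, with a log2 fold change of −0.09 (SE 0.06, adjusted p = 0.814). Mutant 1 lay above wild type 2, so the groups overlapped. Hnrnpa0 was at −0.11, Hnrnpa3 at −0.07, Hnrnpa1 at −0.06, Hnrnpab at −0.05 and Hnrnpd at −0.05 on the log2 fold change scale. The most abundant member, Hnrnpa2b1, was at 1439, 1371 and 1374 CPM against 1427, 1323 and 1376 CPM, a log2 fold change of 0.02 (SE 0.05) with groups that overlapped.

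The F/H group, which binds G-rich RNA, had the narrowest range of log2 fold changes, −0.07 to 0.02. Hnrnph2 was at 126, 117 and 122 CPM in mutant-labelled and 129, 117 and 137 CPM in wild-type libraries, a log2 fold change of −0.07 (SE 0.07, adjusted p = 0.908). Hnrnpf, Hnrnph3 and Hnrnph1 had log2 fold changes of −0.02, −0.01 and 0.02. Among the remaining hnRNP genes, Hnrnpm was at −0.05, Hnrnpc, a binder of uridine tracts, at −0.03, Hnrpll (now Hnrnpll) at −0.02 and Hnrnpk at −0.02. Hnrnpl was at −0.01, Hnrnpul2 at 0.02 and Hnrnpu, a scaffold of nuclear RNA, at 0.03.

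Differences within same-numbered libraries show how even these shifts were. In 19 of 37 members (51.4%) the mutant-minus-wild-type difference had the same sign in all 3 pairs, against 39% of all tested genes. For SR genes this held in 8 of 11 and for hnRNP genes in 8 of 20. Groups did not overlap for 6 members in the upward direction (7.42% of all genes) and for 2 in the downward direction (6.09% of all genes). The library numbered 2 was the lowest of its group in both genotypes for 15 of 37 members (40.5%), against 21.5% of all tested genes, a pattern visible above in Srsf5, Tra2b, Hnrpdl and Hnrnph2.

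**Figure D4:**
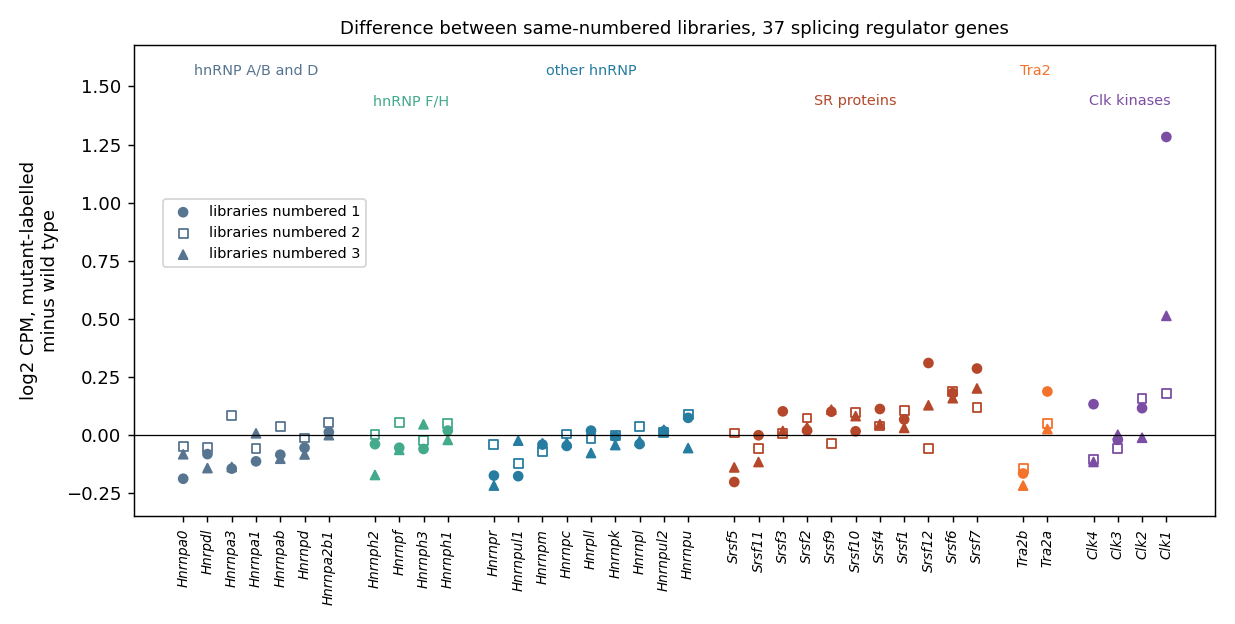
Difference in log2 CPM, mutant-labelled minus wild type, between libraries numbered 1 (circles), 2 (open squares) and 3 (triangles) for each of the 37 genes, coloured by family. Srsf6 and Srsf7 lie above 0 and Tra2b below 0 in all 3, the 3 values for Clk1 spread from 0.18 to 1.28, and most other genes scatter close to 0.

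Gene counts add up all transcript forms, including those that are not translated. GENCODE M21 annotates at least 1 transcript as a target of nonsense-mediated decay for 25 of the 37 genes (67.6%), against 26.6% of 14500 tested genes with an entry. This was so for 9 of 11 SR genes, both Tra2 genes, all 4 Clk genes and 10 of 20 hnRNP genes. Retained-intron transcripts were annotated for 28 of 37 members (75.7%), against 55.6%. These shares were not matched for level or for the number of annotated transcripts per gene. Of the 13 transcripts annotated for Clk1, 7 retain an intron and 2 are marked for decay, and Tra2b has 3 of each kind among 9. The counts do not separate these forms, so a higher count need not be more translated message.

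Other genes of the splicing pathway were read from 5 lists, of which 102 of 103 genes were tested. Without pairing 0 of them were called, with 4 at an unadjusted p under 0.05, and 0 by DESeq2. With pairing 3 were higher and 3 lower (5.88% in all, against 3.46% of all genes). Their median log2 fold change was −0.02. None of 32 core spliceosome genes and none of 10 hnRNP-type genes outside the rule passed either test, with medians of −0.02 and 0.01. Without pairing, 0 genes in both lists were at an unadjusted p under 0.05. In the paired edgeR fit, unadjusted p was 0.00603 for Prpf8, 0.0111 for Sf3b1 and 0.0349 for Cirbp, all lower. It was 0.00941 for Sf3a1 and 0.0351 for Snrpn, both higher. The share of all genes under 0.05 in that fit was 17.9%.

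Among 24 tested SR kinases and SR-related genes, the paired fit called 1 higher and 1 lower. Prpf4b, a kinase of the spliceosome, was at 120.1, 143 and 125 CPM in mutant-labelled and 93.9, 134 and 110.1 CPM in wild-type libraries. It was higher within each numbered pair although the groups overlapped (log2 fold change 0.21, SE 0.05, adjusted p = 0.0335 paired and 0.829 unpaired). Dyrk1a, a dosage-sensitive kinase with splicing factors among its substrates, was at 106, 114 and 110.4 CPM against 118, 137 and 126 CPM. Its groups did not overlap, and its log2 fold change was −0.21 with pairing (SE 0.04), with adjusted p = 0.0162 paired and 0.515 unpaired.

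Of 26 tissue-restricted splicing regulators, the paired fit called 1 higher and 2 lower. Elavl4, a neuronal RNA-binding protein also known as HuD, was at 134, 141 and 141 CPM in mutant-labelled and 104, 113 and 126 CPM in wild-type libraries. It rose with pairing (log2 fold change 0.28, SE 0.05, adjusted p = 0.0035, unpaired 0.444). Elavl4 passed in each of the 3 paired fits that left out 1 pair of libraries, Dyrk1a in 2 of them, and Prpf4b, Rbfox3, Nova1 and Upf1 in 1. Rbfox3, the NeuN antigen of mature neurons, was at 128, 121 and 138 CPM against 151, 127 and 164 CPM. Rbfox3 fell by 0.19 with pairing (SE 0.04, adjusted p = 0.0335, unpaired 0.779), and wild type 2 lay inside the mutant-labelled range. Nova1, a neuronal regulator of alternative exons, was at 49.5, 43.8 and 53.6 CPM against 59.6, 49.6 and 62.4 CPM and fell by 0.22 with pairing (SE 0.06, adjusted p = 0.0437, unpaired 0.75).

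Of 10 nonsense-mediated decay genes, the paired fit called Upf1 higher. Upf1, the helicase at the centre of that pathway, was at 96.8, 92.4 and 99.7 CPM in mutant-labelled and 76.8, 88.3 and 82.7 CPM in wild-type libraries. The groups did not overlap, and the log2 fold change was 0.22 (SE 0.05, adjusted p = 0.0382 paired and 0.483 unpaired).

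Markers of the cell types in these pools were set beside the called genes. Of 8 dividing-cell markers 0 passed either test, with 1 at an unadjusted p under 0.05 without pairing. In the paired edgeR fit, unadjusted p was 0.00296 for Kif20a, 0.00777 for Ccnb1, 0.0222 for Aurka and 0.0418 for Mki67. Each of these was higher in mutant-labelled libraries, and 17.9% of all genes were under 0.05 in that fit. The 8 markers summed to 244, 219 and 183 CPM in mutant libraries 1 to 3 and to 217, 208 and 173 CPM in wild type. The sum was higher in the mutant-labelled library of each numbered pair, although the groups overlapped. Of the 8, 7 had a log2 fold change above 0, and 7 had the same sign in all 3 pairs (87.5%, against 39% of all tested genes). Of 6 projection neuron markers the paired fit called 3 higher and 0 lower, where it called 1.97% of all genes higher. All 6 had a log2 fold change above 0, from 0.004 to 0.40, and DESeq2 called the highest, Fezf2. Of 6 progenitor markers the paired fit called 1 higher. Their sums were 355 to 425 CPM in mutant-labelled and 348 to 421 CPM in wild-type libraries. Interneuron markers summed to 497 to 572 CPM in mutant-labelled and 495 to 617 CPM in wild-type libraries, with 0 of 7 called. Without pairing 1 was at an unadjusted p under 0.05. Lhx6 and Sst were lower in all 3 pairs, with paired edgeR adjusted p of 0.0889 and 0.0943 (unadjusted 0.0048 and 0.0053). Of the 7, 3 had a log2 fold change above 0. Microglial, endothelial, striatal and thalamic, meningeal and oligodendrocyte-lineage markers gave 0 calls among 27 tested. Without pairing 0 were at an unadjusted p under 0.05, and DESeq2 called 0. Summed levels overlapped between groups in each of these lists. In the paired edgeR fit, unadjusted p was 0.0172 for Aif1, 0.0271 for Lum, 0.0359 for Ppp1r1b, 0.0395 for C1qa and 0.0417 for Pdgfra. Each of these was lower in mutant-labelled libraries, and the other markers were above 0.05. In whole tissue, a change in the share of a cell type and a change in RNA per cell cannot be told apart. The part of cell makeup, and of the lower immediate-early genes, in the values of Srsf6, Srsf7 and Tra2b was not tested.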

How the data were processed

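Total RNA of the 6 pools went into strand-specific TruSeq libraries, per the labels' protocols. The authors deposited raw counts of reads per gene symbol. HTSeq 0.5.3p9, Bowtie2 2.1.0, TopHat2 2.0.9, CASAVA 1.8.2 and the mm10 build are listed in the submitters' processing notes. The role of each, the annotation and the strand setting were not given in the sources used here, so overlapping or antisense genes and near-identical copies may share or lose reads.

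Counts were tested with edgeR 4.0.16 (R 4.3.3; quasi-likelihood, robust, TMM scaling, default expression filter, two-sided, Benjamini-Hochberg over 14618 genes, threshold 0.05), and with DESeq2 1.42.0 as an alternative; the fits were tested on simulated data. SEs come from the F statistic, and within-pair differences use log2 CPM with a prior count of 2. Columns were matched to libraries by title; 0 columns were unused. Depth was 18569383 to 24147810 counts per library. Same-genotype libraries differed beyond sampling noise (chi-square per degree of freedom 7.13 to 23.1). Unpaired p-values set the difference between genotypes against the spread between embryo pools of a genotype. Paired p-values set it against how that difference varied from one library number to another, with the pairs themselves taken from these data.

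Pairing: the labels number the libraries without saying what a number shares. Deviations from group means correlated at 0.61, 0.51 and 0.47 for same-numbered libraries, each over the bound of 0.1, and at −0.48 to −0.07 otherwise; these values are not independent, since deviations cancel within a group. The numbers were therefore taken as pairs, from the data. The biological coefficient of variation was 0.128 without and 0.0584 with the block.

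Members and lists were chosen with earlier results of these data known. Values in every library were given for members called in either fit, both Tra2 and all Clk genes, the member with the smallest p in each family, and called genes of the pathway lists; Srsf1, Srsf3, Srsf10, Srsf5, Hnrnpul1, Hnrnpa2b1, Hspa1a and Hspa1b were added after their values were seen. All 37 members matched GENCODE M21 (GRCm38), 2 through an older symbol, and 34 had a RefSeq start window. Shared sequence was measured in words of 50 bases; the read length was not given in the sources used here.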

Additional observations from a re-analysis of the deposited data

How the results depend on the processing

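Without pairing, 0 members were called under each other scaling (relative log expression size factors, or total counts), without the low-count filter or with a stricter one, and with any 1 library left out. The number at an unadjusted p under 0.05 was 4 in the unpaired fit and 3 to 5 under those scalings and filters. It was 2 to 10 with 1 library left out, the highest without wild type 2. The number over all genes rose there too, to 2186 of 14761, against 693 to 869 with any other library left out. DESeq2 called 1 member, 0 pathway-list genes and 106 genes in all. With the replicate block the counts were 3 members, 6 pathway-list genes and 506 genes. With pairs 1, 2 and 3 left out in turn from the paired fit, the counts were 1, 8 and 0 members, 2, 11 and 1 pathway-list genes, and 295, 1874 and 62 genes, so the paired counts rest on which pairs were used. Over all genes, 11 were called without pairing, 20 without the low-count filter, and 3 to 35 when 1 library was left out, the highest without wild type 2. Total-count scaling was chosen after seeing the data.

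Of the 37 members, 29 kept their direction in each alternative run. The other 8, each near 0, changed sign. With 1 library left out, log2 fold changes ran for Clk4 from −0.0802 to 0.0205, for Hnrnpa2b1 from −0.00649 to 0.0458, for Hnrnpf from −0.0700 to 0.0284, for Hnrnph3 from −0.0418 to 0.00754, for Hnrnpk from −0.0573 to 0.0152, for Hnrnpl from −0.0271 to 0.00617 and for Hnrpll from −0.0595 to 0.0120. In the paired fit the reversed values were Clk4 at 0.0104 without pair 2 and 0.0127 without pair 3, Hnrnph1 at −0.00137 without pair 2, Hnrnph3 at 0.0104 without pair 1, Hnrnpl at 0.00500 without pair 1 and 7.06e-05 without pair 3 and Hnrpll at 0.00347 without pair 3. Hnrnpl also reached 9.2e-05 with total-count scaling. The cause was not tested. With 1 pair left out, the paired adjusted p ran from 0.00715 to 0.340 for Srsf6, from 1.61e-05 to 0.315 for Srsf7 and from 0.00101 to 0.419 for Tra2b. Every member had enough counts to be tested, and the 3 libraries per group limit the precision.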
